A study of Mus musculus with 8 samples.

Results

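The regions described here are stretches of open chromatin that lie in the interior of protein-coding genes and were listed at every dose of hexavalent chromium tested. They were chosen from 3 deposited region lists, one for each treated dose, by joining regions that overlapped by at least 1 bp and keeping those outside chromosome 15 that held a region from all 3 lists and whose midpoint fell inside a protein-coding gene, more than 1 kb from any gene start or end. There were 1839 such regions, called members below, among 21051 joined regions in all. They were 29.0% (95% Wilson interval 27.9 to 30.2%, counting error only) of the 6331 regions listed at every dose outside chromosome 15. The other all-dose regions were 2477 at gene ends, within 1 kb of the end of a protein-coding gene, and 2015 between genes.

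The cells were Hepa-1c1c7, an established mouse hepatoma line, kept for 72 h with potassium chromate at 0 (the control), 0.1, 0.5 or 1 µM. Each of these 4 groups had 2 libraries, 8 in all, and the accessible DNA was mapped by ATAC-seq, in which the Tn5 transposase inserts sequencing adapters where DNA is not covered by nucleosomes. The lists held 14401, 11130 and 15894 regions at 0.1, 0.5 and 1 µM, and each is named for its dose paired with the untreated cells. The labels do not say if the 2 libraries of each group are separate cultures, nor how they were combined into a list. There is thus 1 list per dose and no replicate error, no list of untreated cells was analysed here, and the depth behind each region is unknown. How the control entered the calling is not stated either, so a listed region is not shown to have opened with chromium, and an unlisted one is not shown to be closed. Labels of the 1 µM libraries carry another prefix (N503) than the others (N502), and the prefix cannot be told apart from the dose. The members were selected for being listed at every dose, so their presence in the lists is a description and is not tested.

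Open chromatin inside genes marks places where nucleosomes have given way to bound proteins. In mammals such places include enhancers within introns, alternative promoters from which shorter transcripts start, promoters of non-coding RNAs that lie within the gene, and sites held by CTCF, a zinc finger protein that together with the ring-shaped cohesin complex anchors chromatin loops. Promoters of widely used genes commonly lie in CpG islands, stretches rich in the dinucleotide CpG that are mostly unmethylated. Hexavalent chromium enters cells through anion channels and is reduced there, with damage to DNA and oxidative stress.

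A part of the members lay on annotated transcription starts in the interior of their own gene, and the DNA just before some of these starts is shown because it carries the contrast in CpG content described further on. The 250 bases before each start are RefSeq sequence of GRCm38.p6 (the assembly of mm10), 5′ to 3′ on the gene's strand, with every CpG in capitals. The first 7 starts lay under a member and the last, Hnf4a, lay under no listed region at any dose. Interior here means more than 1 kb from the ends of the annotated gene. For Wapl, Stag1, Arntl, Slc7a11 and Aim2 no promoter was annotated within 1 kb of the gene's own 5′ end. Their printed starts are thus not shown to be alternative promoters. Wapl (chr14:34673678-34673927, plus strand) encodes the factor that releases cohesin from DNA, and Stag1 (chr9:100643198-100643447, plus strand) a cohesin subunit. Fth1 (chr19:9982396-9982645, plus strand) encodes the ferritin heavy chain, which stores iron. Txnrd1 (chr10:82858956-82859205, plus strand) encodes a thioredoxin reductase, and Slc7a11 (chr3:50443614-50443863, minus strand) the cystine importer that feeds glutathione synthesis. Arntl (chr7:113207215-113207464, plus strand) encodes the clock transcription factor BMAL1. Aim2 (chr1:173420354-173420603, plus strand) encodes a sensor of DNA in the cytosol, and Hnf4a (chr2:163546905-163547154, plus strand) a nuclear receptor of hepatocytes.
Wapl: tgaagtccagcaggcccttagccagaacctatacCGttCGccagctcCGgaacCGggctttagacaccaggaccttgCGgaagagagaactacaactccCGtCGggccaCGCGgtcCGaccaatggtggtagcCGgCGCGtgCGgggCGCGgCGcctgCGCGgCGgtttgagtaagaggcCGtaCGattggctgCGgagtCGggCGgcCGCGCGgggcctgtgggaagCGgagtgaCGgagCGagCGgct
Stag1: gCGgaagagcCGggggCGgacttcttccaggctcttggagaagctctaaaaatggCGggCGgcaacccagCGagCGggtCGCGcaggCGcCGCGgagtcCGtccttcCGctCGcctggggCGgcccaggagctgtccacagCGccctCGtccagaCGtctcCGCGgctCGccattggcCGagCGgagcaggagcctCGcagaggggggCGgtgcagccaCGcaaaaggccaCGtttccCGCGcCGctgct
Fth1: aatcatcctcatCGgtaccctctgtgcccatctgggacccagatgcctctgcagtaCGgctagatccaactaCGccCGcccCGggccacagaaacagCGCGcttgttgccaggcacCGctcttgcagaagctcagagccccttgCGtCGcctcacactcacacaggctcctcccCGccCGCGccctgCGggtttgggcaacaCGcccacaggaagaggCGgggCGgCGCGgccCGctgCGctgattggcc
Txnrd1: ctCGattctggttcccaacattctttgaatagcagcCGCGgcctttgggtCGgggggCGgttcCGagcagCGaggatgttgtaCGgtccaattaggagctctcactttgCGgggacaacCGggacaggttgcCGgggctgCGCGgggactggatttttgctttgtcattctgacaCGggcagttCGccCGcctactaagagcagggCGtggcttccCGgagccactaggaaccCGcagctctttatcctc
Arntl: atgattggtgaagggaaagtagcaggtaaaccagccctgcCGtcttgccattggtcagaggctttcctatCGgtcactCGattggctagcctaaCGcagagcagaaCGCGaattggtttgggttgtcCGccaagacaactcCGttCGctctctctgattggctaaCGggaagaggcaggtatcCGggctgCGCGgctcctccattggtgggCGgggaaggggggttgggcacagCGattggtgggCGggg
Slc7a11: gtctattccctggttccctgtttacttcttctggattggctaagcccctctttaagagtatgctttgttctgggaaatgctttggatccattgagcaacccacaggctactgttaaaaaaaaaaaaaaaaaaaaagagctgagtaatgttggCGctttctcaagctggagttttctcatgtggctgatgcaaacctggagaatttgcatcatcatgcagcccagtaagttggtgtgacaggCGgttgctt
Aim2: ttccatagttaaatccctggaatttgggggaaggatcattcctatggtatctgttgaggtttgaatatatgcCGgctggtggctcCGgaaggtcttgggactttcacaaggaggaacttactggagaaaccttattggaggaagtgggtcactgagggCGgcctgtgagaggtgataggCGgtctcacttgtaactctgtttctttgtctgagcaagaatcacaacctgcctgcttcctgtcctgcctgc
Hnf4a: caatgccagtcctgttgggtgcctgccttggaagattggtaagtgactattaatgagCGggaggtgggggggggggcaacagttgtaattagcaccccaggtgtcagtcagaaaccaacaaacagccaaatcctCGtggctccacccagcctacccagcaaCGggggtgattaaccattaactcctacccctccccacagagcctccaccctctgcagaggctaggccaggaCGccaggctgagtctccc
The counts of CpG in these 250 bases were 32 in Wapl, 31 in Stag1, 21 in Fth1, 19 in Txnrd1, 16 in Arntl, 2 in Slc7a11, 4 in Aim2 and 4 in Hnf4a. The starts of Slc7a11 and Aim2 thus lay under members with as few CpG as the unlisted start of Hnf4a.

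Inside genes, 31.1% of all joined regions (1839 of 5918) were listed at every dose. The share was 47.2% at gene ends (2477 of 5251) and 30.0% between genes (2015 of 6721), so the interior of genes resembled the space between genes in this respect and not the gene ends. Of the members, 1816 lay within 1 gene, 21 within 2 overlapping genes, and 2 within 24 overlapping genes of the protocadherin cluster on chromosome 18. One region from each list made up 1708 of the members. The remaining ones held more than 1 region of a list, from 33 members with several 1 µM regions to 73 with several 0.5 µM regions.

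Members were short stretches. Their median width was 417 bp at 0.1 µM, 351 bp at 0.5 µM and 451 bp at 1 µM. At gene ends the all-dose regions were wider, with medians of 535, 436 and 595 bp at 0.1, 0.5 and 1 µM, while between genes they measured 426, 340 and 440 bp. Regions inside genes that were listed at 1 or 2 doses were narrower than the members, with medians of 266, 249 and 280 bp. A wider region overlaps regions of the other lists more easily, so the rule itself favours wide members. How far the rule sets this difference was not tested. The joined members had a median width of 530 bp, from 228 to 2661 bp. The stretch shared by all 3 lists had a median of 286 bp, or 58.1% of the joined width at the median. In 12 members the 3 lists touched in a chain and shared no base. Midpoints of the same member moved by a median of 53.5 bp between 0.1 and 0.5 µM, 44 bp between 0.1 and 1 µM, and 49.5 bp between 0.5 and 1 µM. The rule keeps only regions that overlap, which limits these shifts, and they were 63.5, 59 and 62 bp at gene ends and 45, 43 and 42 bp between genes for the same pairs of doses.

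Widths did not rise with the dose in steps. Of the 1839 members, 569 (30.9%) were wider at 0.5 than at 0.1 µM, 1046 (56.9%) were wider at 1 than at 0.1 µM, and 1446 (78.6%) were wider at 1 than at 0.5 µM. The all-dose regions at gene ends gave 29.2%, 59.7% and 79.3% for the same pairs, and those between genes 25.9%, 53.2% and 77.9%. Over whole lists the median region was 339 bp wide at 0.1 µM, 324 bp at 0.5 µM and 353 bp at 1 µM, and the 0.5 µM list was also the shortest. How far the length of a list sets these widths was not tested.

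**Figure D1:**
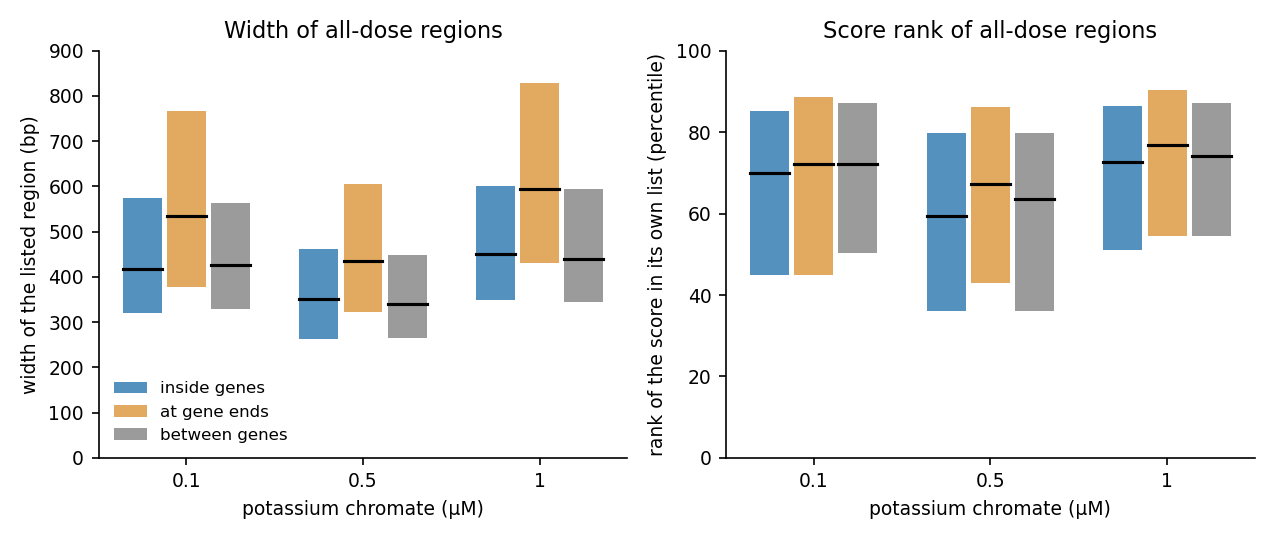
Width in bp of the deposited region (left axis panel) and rank of its score within its own list in percentiles (right axis panel) for the all-dose regions inside genes, at gene ends and between genes, by dose of potassium chromate in µM. Coloured boxes run from the lower to the upper quartile and black lines are medians; the inside-gene medians of 417, 351 and 451 bp lie below those at gene ends at each dose.

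Each region carries the authors' score, a whole number of at least 4 with no stated scale, which is used here only to order regions within a list. The median member ranked at percentile 69.9 of the 0.1 µM list, 59.5 of the 0.5 µM list and 72.6 of the 1 µM list. Members covered the range of the lists, with scores from 4 to 221 at 0.1 µM, 4 to 181 at 0.5 µM and 4 to 252 at 1 µM. Scores of wide regions can differ strongly between lists at 1 place, as in the member of Slc39a10 with 45, 111 and 14 at 0.1, 0.5 and 1 µM, so ranks of single members are given for the 1723 members (93.7%) that were narrower than 1000 bp in each list. Among these, 313 (18.2%) stood in the upper 25% of every list and 21 (1.22%) in the lower 25% of every list. The difference between the best and the worst of a member's 3 ranks had a median of 28.1 percentile points. It was above 50 points in 329 of these narrow members (19.1%), so their scores can differ strongly between lists too.

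The 12 narrow members with the best mean rank lay in 12 genes. First stood a member inside Pigk, which encodes the catalytic subunit of the enzyme that attaches glycolipid anchors to proteins, at chr3:152813557-152814594. It was 883, 924 and 898 bp wide at 0.1, 0.5 and 1 µM and carried scores of 221, 181 and 252, the highest of any member in each list. A member near the 3′ end of Camk2d, the gene of the delta subunit of a calcium and calmodulin dependent kinase, followed at chr3:126831305-126832048, with 738, 707 and 689 bp and scores of 144, 135 and 202. Both stood above percentile 99.6 of every list. Pex2, a ubiquitin ligase component needed to build peroxisomes, held a member at chr3:5575814-5576732 with scores of 173, 103 and 160. Aida held one at chr1:183299076-183299668 with scores of 93, 164 and 212. The others lay in Erich3, Nol4, Aim2, Uggt2 (a sensor of glycoprotein folding), Pla2g4a (the cytosolic phospholipase that releases arachidonic acid), Stard13, Trpm6 (a magnesium channel) and Nckap5. The member of Aim2 lay over the arginine tRNA gene n-TRtct5 as well as over an annotated start of Aim2, at chr1:173420261-173420816, with scores of 144, 77 and 162. The remaining 11 lay over no start in the tables, where chromosome 18, which holds Nol4, has no starts.

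The 5 widest members were in Slc39a10 (2661 bp, joined width), Arrdc3 (2165 bp), Tshz2 (2009 bp), Kdm4c (1889 bp) and Ankrd13c (1871 bp). Slc39a10 encodes a zinc importer and Kdm4c a histone lysine demethylase. All 5 lay over an annotated start, an internal start of the gene itself in 4 of them and the start of a long non-coding RNA in Tshz2. At the 1 kb limit of the rule, the members closest to a gene end were in Patl2 (1002 bp from the end, with scores of 5, 7 and 9) and Mthfd1 (1005 bp, with scores of 6, 9 and 14). The regions just outside the limit were at Zfp959 (995 bp, with scores of 75, 50 and 5) and Zfp948 (995 bp, with scores of 18, 21 and 62).

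Members lay deep inside long genes. Of 20855 protein-coding genes outside chromosome 15, 1247 (5.98%) held a member, and the median length of these genes was 87.8 kb, against 17.3 kb for all genes. Among genes under 10 kb, 37 of 7482 (0.495%) held a member. The share was 4.29% (370 of 8621) from 10 to 50 kb, 11.3% (275 of 2426) from 50 to 100 kb, 19.5% (269 of 1381) from 100 to 200 kb and 31.3% (296 of 945) above 200 kb. A longer gene has more interior in which a region can lie, and genes under 2 kb have none. The distance of a member to the nearest gene end had a median of 20.2 kb (quartiles 6.12 and 55.8 kb). It was above 10 kb for 1216 members (66.1%) and above 100 kb for 245. Where strand could be read, the median host gene measured 114 kb for members and 110 kb for inside-gene regions at 1 or 2 doses. Median distances from the 5′ end were 35.1 and 37.1 kb, so a place deep in long genes was not particular to members.

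**Figure D2:**
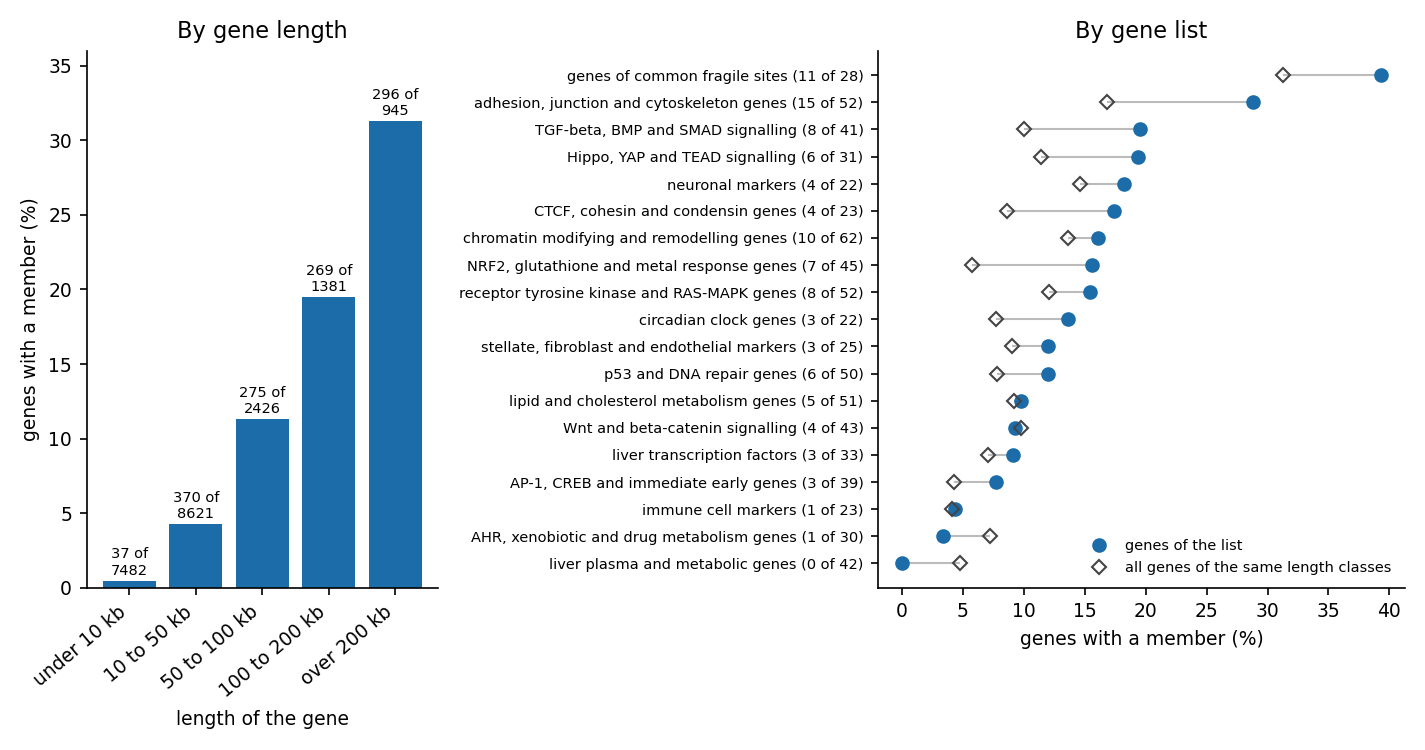
Left, share of protein-coding genes outside chromosome 15 with a member (vertical axis, %) by gene length, with counts above the bars; right, the same share for 19 gene lists (filled circles) beside the share that all genes of the same length classes would give (open diamonds), with counts in parentheses. The share climbs to 31.3% in genes above 200 kb, and in 16 of the 19 lists the circle lies right of the diamond.

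Members gathered toward the 5′ part of genes. Strand could be read for the hosts of 1416 members, and 30.5% of these lay in the first 20% of the gene. The following stretches of 20% held 21.3%, 16.3%, 16.4% and 15.5%. Among the 1145 of them that covered no annotated start the shares were 24.3%, 21.3%, 17.6%, 18.3% and 18.6%, nearer to the 20% of an even spread. The inside-gene regions listed at 1 or 2 doses (n = 3173) gave 28.6% in the first stretch and 18.3% in the last. Within 10 kb of the 5′ end lay 25.6% of the members, against 12.6% within 10 kb of the 3′ end. These shares were 27% and 14.5% for regions listed at 1 or 2 doses, and 16.9% and 13% for members over no annotated start, so the 5′ excess was not particular to members.

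Some genes held many members. Of the 1247 genes, 885 had 1 member and 362 (29.0%) had more, which together held 965 members (52.5%). Stard13, which encodes a protein with a lipid-binding START domain, had 14 along 391 kb, the highest number of any gene. They ran from 10.7 to 374 kb from its 5′ end with a median gap of 21.9 kb. Its member ranked highest by mean rank, 112 kb in, had widths of 960, 798 and 884 bp and scores of 121, 62 and 154 at 0.1, 0.5 and 1 µM, while the member at 374 kb had 274, 605 and 939 bp and scores of 8, 6 and 11. Another 14 joined regions inside Stard13, of 28 in all, were not listed at every dose.

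Pam, the gene of an enzyme that amidates the ends of peptide hormones, had 11 members along 275 kb. Its members ranked high, with median percentiles of 89.4, 81.7 and 86.4 in the 0.1, 0.5 and 1 µM lists, and 2 of them lay at starts of long non-coding RNAs. Dlgap1, a scaffold protein of the postsynaptic density, had 11 members along 852 kb, of which 9 lay between 733 and 828 kb from its 5′ end. Camk2d had 8 along 251 kb. The first of these lay at an internal start 1.46 kb from the 5′ end with widths of 1389, 1219 and 1615 bp, and the last, at 236 kb, was the member with the second best mean rank named above.

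**Figure D3:**
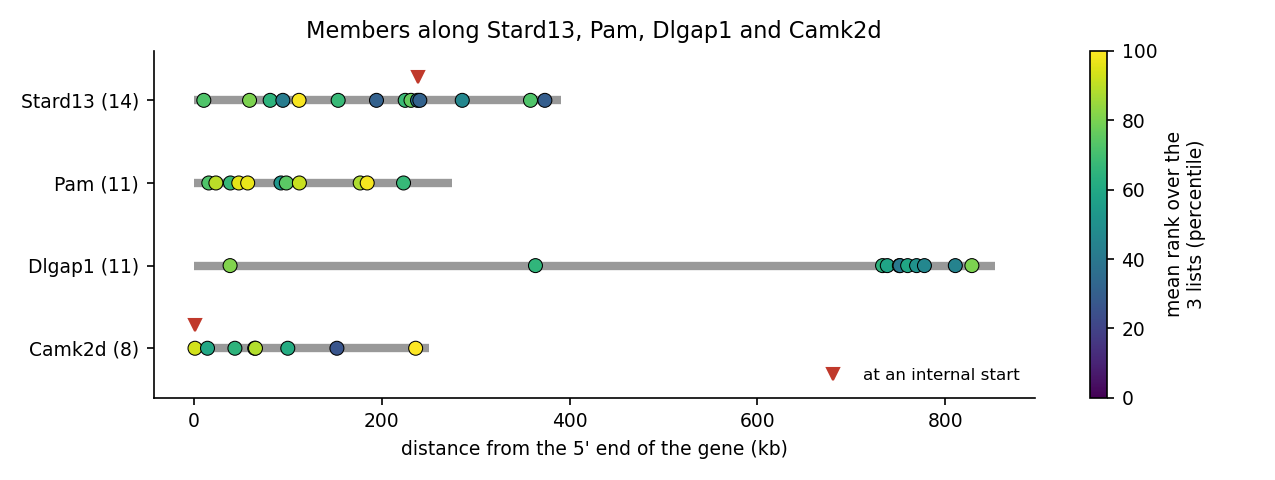
Members along Stard13, Pam, Dlgap1 and Camk2d, each drawn as a grey bar from its 5′ end (0 kb, horizontal axis in kb), with the number of members in parentheses; circle colour is the mean rank over the 3 lists (percentile) and red triangles mark members at an internal start of the gene. The 14 members of Stard13 are spread along the gene, while 9 of the 11 in Dlgap1 sit in its last part.

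Plcb1 (a phospholipase C that signals from G protein coupled receptors) had 8 members along 689 kb. Pde4d (a phosphodiesterase that breaks down cyclic AMP) had 7 along 1300 kb, and Ak5 (an adenylate kinase) and Snx24 (a sorting nexin) had 7 each along 206 and 147 kb. The members of Snx24 were the closest together among these genes, with a median gap of 3.79 kb. With 6 members each followed Esrrg (an orphan nuclear receptor), Ptpn14 (a phosphatase that restrains the coactivator YAP), Nfatc2 (a calcineurin-dependent transcription factor), Spata17, Palld (an actin-binding protein) and the overlapping genes Iqschfp and Schip1, which share the same 6. Per length, the members were densest in Nfatc2 (4.79 per 100 kb), Snx24 (4.76), Ptpn14 (4.04) and Pam (4) among these genes, and sparsest in Pde4d (0.538). Neighbouring members on a chromosome were a median of 275 kb apart, and 185 of 1820 neighbouring pairs (10.2%) were within 10 kb.

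The density of members differed between chromosomes. Chromosome 3 held 196 members, or 3.96 per Mb of gene interior, chromosome 1 held 285 (3.78 per Mb), chromosome 17 held 127 (3.48 per Mb) and chromosome 18 held 104 (3.27 per Mb). At the other end stood chromosome 12 with 26 (0.646 per Mb), chromosome 14 with 29 (0.64 per Mb), chromosome 9 with 31 (0.583 per Mb) and the X chromosome with 16 (0.366 per Mb). Over all chromosomes but 15 the density was 1.94 per Mb. The number of all-dose regions at gene ends per 100 genes varied with it (Pearson r 0.85 and Spearman rho 0.849 over 19 chromosomes, a description of chromosomes that share the same libraries). The order was therefore not particular to the interior of genes. Median ranks of members differed less, from percentile 59.6 on chromosomes 9 and 11 to 76.5 on chromosomes 12 and 14 in the 0.1 µM list. They ran from 42.9 on chromosome 9 to 67.3 on chromosome 3 at 0.5 µM, and from 65 on chromosome 9 to 79.2 on chromosome 13 at 1 µM. In the 0.5 µM list the densest chromosomes, 3, 1, 17 and 18, stood highest, at 67.3, 63.6, 63.6 and 61.6.

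**Figure D4:**
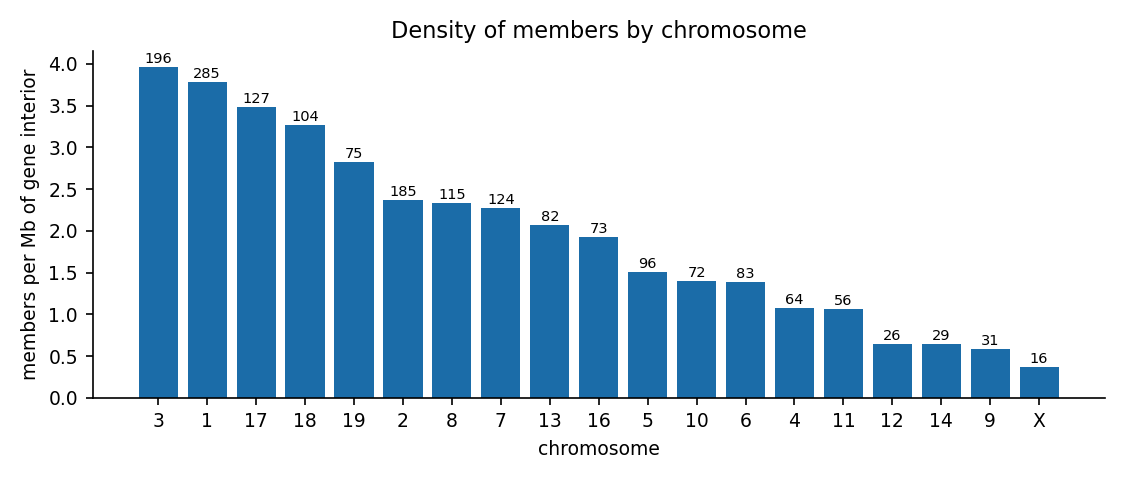
Members per Mb of gene interior (vertical axis) by chromosome, ordered by density, with the number of members above each bar. Chromosomes 3 and 1 lie at 3.96 and 3.78 per Mb and the X chromosome at 0.366 per Mb.

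Members covered annotated starts more often than inside-gene regions listed at fewer doses did. RefSeq promoter windows, from 250 bases before to 50 after a start, served as starts, and chromosome 18 has none in the table. Of the 1735 members elsewhere, 283 (16.3%, 95% Wilson interval 14.6 to 18.1%) overlapped such a window. The share was 7.84% (7.04 to 8.73%) in regions inside genes at 1 or 2 doses, 5.19% (4.28 to 6.29%) in all-dose regions between genes and 81.4% in all-dose regions at gene ends. A wider region meets a window more easily. Joined members had a median width of 530 bp and joined all-dose regions between genes 522 bp. Inside-gene regions at 1 or 2 doses had medians of 266, 249 and 280 bp at 0.1, 0.5 and 1 µM. How far width sets these shares was not tested. Of the 283, 254 lay at an internal start of their own gene, more than 1 kb from both of its ends, 23 at the start of a long non-coding RNA and 6 at an outer start. The other 1452 members lay over no start of the table. Members at an own internal start were wider, with medians of 512, 426 and 574 bp at 0.1, 0.5 and 1 µM, against 408, 339 and 437 bp where no start was annotated.

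Read from the side of the starts, 270 of 3517 internal starts of protein-coding genes (7.68%) lay under a member. Nearly as many, 256 (7.28%), lay under a region listed at 1 or 2 doses, and 2972 under no listed region. For the outer starts of protein-coding genes, at most 1 kb from a gene end, 2186 of 15695 (13.9%) lay under an all-dose region. The internal starts under a member were rich in CpG, with a median of 20 in the 300 bases of the window (quartiles 12 and 27), against 6 (3 and 16) where no region was listed. Of those under a member 80.4% had 10 or more CpG, against 37.3%. Internal starts under regions at 1 or 2 doses also had a median of 20, so CpG content set listed from unlisted starts apart and not the all-dose ones from the others. The share of internal starts under a member was 0.992% (interval 0.455 to 2.15%) with 0 to 2 CpG, 2.07% (1.28 to 3.34%) with 3 to 5, 5.24% (3.71 to 7.34%) with 6 to 9, 11.9% (9.67 to 14.6%) with 10 to 19 and 15.6% (13.4 to 18.2%) with 20 or more. Outer starts under any all-dose region gave 0.512%, 2.87%, 7.94%, 18.2% and 23.4%. In the upper 2 classes these were higher than the shares of internal starts, with intervals that do not overlap. The counts are unlike, since internal starts count only under a member, and 289 of them (8.22%) lay under any all-dose region. The difference was not tested.

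**Figure D5:**
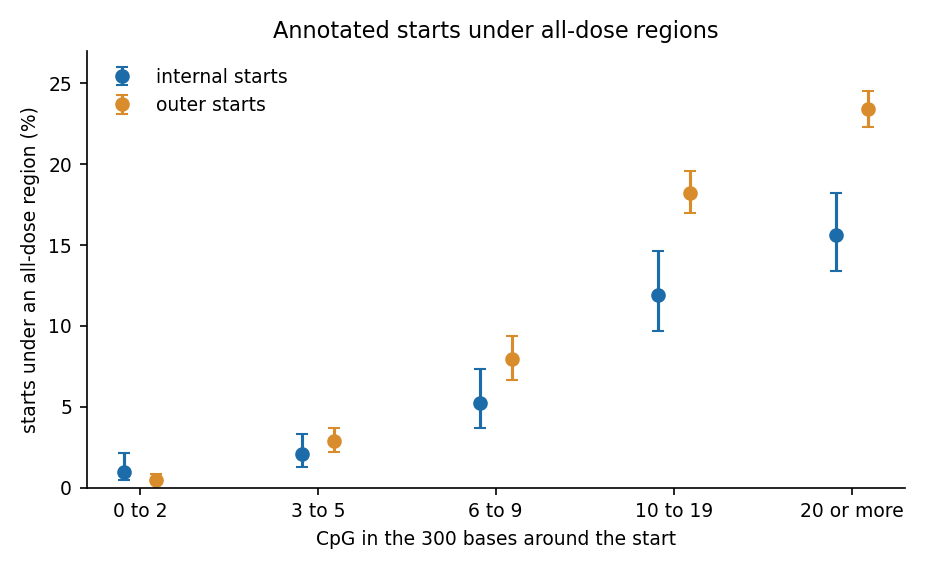
Share of annotated starts under an all-dose region (vertical axis, %; members for internal starts) by the number of CpG in the 300 bases of the promoter window, for internal and outer starts of protein-coding genes. Points are shares and bars 95% Wilson intervals that cover counting error only; both kinds of start climb with CpG, to 15.6% and 23.4%.

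The 254 members at own internal starts lay in 252 genes, and 130 of them (51.2%) were within 5 kb of the outer start, with a median of 4.67 kb. For 175 of these genes (69.4%) the table had no start within 1 kb of the outer start, against 1589 of 2828 genes with an internal start (56.2%). Whether the outer start of these 175 genes was listed could not be read. The start called internal may be their outermost annotated one, so an alternative promoter is not shown there. Of the 77 genes with an outer start in the table, 48 (62.3%) had no region there at any dose and 23 (29.9%) had one at every dose. An outer start with no region was found in 74.7% of all 15161 genes with an outer start in the table, and in 52.6% of the 589 genes whose members lay at no internal start. Fth1 was of the first kind, with its member at chr19:9982404-9982964, 482, 496 and 492 bp wide with scores of 14, 18 and 26. Txnrd1 was as well, with its member at chr10:82858722-82859458, 25.3 kb from the outer start, 466, 721 and 603 bp wide with scores of 22, 11 and 22. Mgst1, a microsomal glutathione transferase, and Kat2b, a histone acetyltransferase, had an all-dose region at the outer start too.

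Genes with a member were also more often listed at their outer start. An all-dose region covered the outer start of 35% of the genes with a member (n = 666 with an outer start in the table), against 13% of the genes without one (n = 14495). By gene length the shares were 30.4% against 6.76% under 10 kb, 39.9% against 17.8% from 10 to 50 kb, 43.3% against 18.7% from 50 to 100 kb, 35.4% against 14.5% from 100 to 200 kb and 20.9% against 7.94% above 200 kb. The share was higher in genes with a member in 18 of the 18 chromosomes with starts. On chromosome 1, which has the most such genes (107), the shares were close, at 31.8% against 28.8%. Some chromosomes had few, with 6 on the X chromosome. Both shares come from the same lists.

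Short motifs were counted on both strands of the 300-base windows, where a window can hold several of them and an AP-1 match followed by GC is also an antioxidant response element. The SP1 letters GGGCGG were in 64.8% of the 270 internal starts under a member, against 33.4% of the 2972 under no region and 35.7% of all 29695 promoter windows. Among windows with 10 or more CpG the shares lay closer, at 73.7% against 68.4%. The ETS letters CCGGAAGT were in 10% against 1.95% (3.73% of all windows), and in CpG-rich windows in 11.1% against 4.06%. The NFY letters CCAAT were in 44.4% against 33.8% (37.6% of all windows), and in CpG-rich windows in 43.3% against 28.3%. The xenobiotic response element GCGTG was in 54.4% against 29.5% (32.4% of all windows), with 61.3% against 51.8% in CpG-rich ones. The 2186 outer starts under an all-dose region gave 71% for SP1, 9.56% for ETS, 48% for NFY and 56.2% for the xenobiotic element. High shares of these 4 motifs were thus not particular to internal starts under a member.

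Further motifs were higher, lower or alike in share. CRE (TGACGTCA) was in 3.7% of internal starts under a member, against 1.21% under no region (1.78% of all windows). NRF1 was in 1.85% against 0.37% (0.929% of all windows), and the E-box CACGTG in 10.7% against 5.38% (7.12% of all windows). These 3 motifs contain CpG. In CpG-rich windows CRE stood at 4.61% against 1.8%, NRF1 at 2.3% against 0.902% and the E-box at 12.4% against 8.48%. Outer starts under an all-dose region gave 4.57% for CRE, 2.33% for NRF1 and 9.79% for the E-box. The motif of GATA factors, with the letters AGATAA and no CpG, was in 4.81% against 11.1% (11.2% of all windows), and RUNX (TGTGGT) in 9.63% against 17.7% (16.7% of all windows). In CpG-rich windows RUNX stood at 8.76% against 9.47%. The antioxidant response element TGACNNNGC, where N is any base, was in 10.4% of internal starts under a member, against 11.8% under no region and 12.4% of all windows. It was in 17% of outer starts under an all-dose region. AP-1 (TGACTCA) was in 7.04% against 5.11% (5.26% of all windows) and FOXA (TGTTTAC) in 2.96% against 2.96% (3.58% of all windows). The CTCF core was in 3 of the 270 windows (1.11%), against 16 of 2972 (0.538%) and 0.562% of all windows. A match is a run of letters in the window and not a bound site. Motifs were not searched in the 1452 members without a start, whose sequence was not used here.

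The gene lists below were taken by function, and each share of genes with a member stands beside the share that all genes of the same length classes would give. The share over all genes was 5.98%. Of 19 lists, 16 lay above their length-class share, a count that included neuronal, stromal and immune markers (18.2%, 12% and 4.35%, against 14.6%, 8.99% and 4.1%), so lying above it was not particular to pathways of the liver or of the response to metal. Over all 20 lists computed the count was 17, and it was 14 with 5 kb kept from gene ends and 13 in the upper 50% of each list by score and in the wider 50%.

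NRF2 drives antioxidant genes when oxidants or metals block its repressor KEAP1. The list of NRF2, glutathione and metal response genes also holds genes of metal handling, and not all of it is driven by NRF2. Its genes held members in 7 of 45 cases (15.6%, against 5.77% at the length-class rates). These were Slc7a11, Abcc4, Slc39a10, Fth1, Txnrd1, Abcc1 and Aco1. Slc7a11 had 3, at chr3:50437958-50438533, chr3:50443424-50444362 and chr3:50456488-50456980, of which the second covered the internal start printed above with widths of 939, 377 and 569 bp and scores of 32, 17 and 35. Abcc4, an exporter of organic anions and drugs, had 2, with scores of 33, 13 and 28 and of 39, 18 and 21. In 4 of the 7 genes a member lay at an internal start. With every start of the promoter table counted as a gene end the share was 8.89%. That setting left 1527 of the 1839 members, and its length-class share is not given.

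Genes of CTCF, cohesin, condensin and related complexes held members in 4 of 23 cases (17.4%, against 8.63%). The share was 8.7% with 2.5 kb kept from gene ends and 4.35% with 5 kb. It was 4.35% in the upper 50% of each list by score and 0% in the wider 50%. Of all 20855 genes, 1060, 940, 660 and 637 held a member in these settings, in the same order, against 1247 in the main setting. The length-class shares of these settings are not given. Stag1 had 2, one of them at its internal start with widths of 603, 316 and 546 bp and scores of 12, 7 and 11. Wapl had 1 over its internal start, 474, 302 and 499 bp wide with scores of 10, 9 and 7. Pds5b, a regulator of cohesin on DNA, and Smc6, a subunit of a related complex that acts in DNA repair, had 1 each and an all-dose region at the outer start. No score of the members of these 4 genes was above 41.

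Chromatin modifying and remodelling genes held members in 10 of 62 cases (16.1%, against 13.6%). Arid1b, a subunit of the SWI/SNF remodelling complex, had 4, of which the one at chr17:5138531-5139374 was 808, 757 and 695 bp wide with scores of 75, 69 and 117. Chd9 and Kat2b also had 4 each and Smarca2, a SWI/SNF ATPase, had 2. In each of these 4 genes the outer start was covered at every dose.

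Adhesion, junction and cytoskeleton genes held members in 15 of 52 cases (28.8%, against 16.8%), with Palld at 6 and Pard3 (a polarity protein), Ctnnd1 (the catenin p120) and Tns1 (a protein that ties integrins to actin) at 3 each. One of the 3 members of Pard3 had widths of 869, 401 and 887 bp with scores of 46, 11 and 96.

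Genes of TGF-beta, BMP and SMAD signalling held members in 8 of 41 cases (19.5%, against 9.98%). Ltbp1, which holds latent TGF-beta in the matrix, had 5, with scores from 7 to 46 over the lists. Acvr1c, a type I receptor, had 2, one of which lay at the start of a long non-coding RNA. Bmp7, a ligand, had 1 at chr2:172906134-172906851 with widths of 660, 568 and 587 bp and scores of 140, 41 and 72. Hippo genes held members in 6 of 31 cases (19.4%, against 11.4%), with 6 in Ptpn14, 2 in Wwc2 and 1 each in Wwc1, Vgll3, Taok3 and Ccn1, the last a target of YAP with only 3.02 kb. Wnt genes stood at 4 of 43 (9.3%, against 9.78%), with 2 members in Tcf7l2, the transcription factor that beta-catenin binds. Receptor tyrosine kinase and RAS-MAPK genes stood at 8 of 52 (15.4%, against 12.1%), with 5 in the ephrin receptor Epha4 and 1 in Insr, the insulin receptor, at chr8:3220965-3221402 with widths of 408, 398 and 380 bp and scores of 15, 15 and 46.

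Genes of p53 and DNA repair held members in 6 of 50 cases (12%, against 7.82%). Mdm4, an inhibitor of p53, had 2, one at an internal start with widths of 1080, 812 and 597 bp and scores of 55, 28 and 62. Mgmt, which removes alkyl groups from guanine, had 2, and Msh3 (mismatch repair) and Xrcc4 (end joining) had 1 each. Genes of common fragile sites, which are very long, held members in 11 of 28 cases (39.3%, against 31.3%), with 6 in Esrrg and 5 each in Dlg2, Wwox and Macrod2. The 31.3% is the rate of all genes above 200 kb. The median length of this list was 1160 kb, so its genes are not matched for length within that class. AP-1, CREB and immediate early genes stood at 3 of 39 (7.69%, against 4.27%), with 1 member each in Crem, Egr2 and Bach2. Clock genes stood at 3 of 22 (13.6%, against 7.69%), in Bhlhe40, Arntl and Hlf. Bhlhe40, a repressor of clock genes, had a member at chr6:108665526-108665947 with widths of 376, 328 and 422 bp and scores of 49, 25 and 84.

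Among 33 liver transcription factors 3 held members (9.09%, against 7.08% at the length-class rates), and among 42 liver plasma and metabolic genes none did (0%, against 4.76%). The 3 were Esrrg, Nr1h4 and Foxa2. Nr1h4, the bile acid receptor FXR, had 3 members, of which the one at chr10:89527039-89527648 had widths of 596, 341 and 454 bp and scores of 50, 19 and 48. Foxa2, a pioneer factor of endoderm, had 2 in 4.09 kb, and its outer start was also listed at every dose. Of 16 hepatocyte markers, Foxa2 was the only one with a member, and Apoa2 and Foxa2 the only ones with an all-dose region anywhere up to 1 kb from the gene, so most hepatocyte markers of the labelled cell type had none. Markers of neurons (Syt1 and Map2 of 5) and immune cells (Csf1r of 7) had members as well, and so did 3 of 25 genes in the stellate, fibroblast and endothelial list, Flt1 with 2 members and Vwf and Col3a1 with 1 each, though none of its 9 defining markers. AHR, xenobiotic and drug metabolism genes stood at 1 of 30 (3.33%, against 7.24%), the drug exporter Abcg2, whose member covered an internal start with 23 CpG in the 250 bases before it. Lipid and cholesterol genes stood at 5 of 51 (9.8%, against 9.19%), with 3 members in Acsl5 (an activator of fatty acids) and 2 in Elovl6 (an elongase).

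Some members lay over genes of non-coding RNAs. Bodies of long non-coding RNAs overlapped 157 members (8.54%), microRNA genes 3 and a tRNA gene 1. The same counts were not made for other regions, so these are not shown to be high or low. The microRNAs are given because their hairpins lie under a member in an intragenic position. The mature sequences are from RefSeq, 5′ to 3′, with the seed (bases 2 to 8) in capitals.
mmu-miR-6352: uUUGGGAAaaggaccccagcuc
mmu-miR-8104: cAGGAUGAgguggagugcagcg
mmu-miR-6416-5p: cUCCGUAUcaucugcucuucu
mmu-miR-6416-3p: gCAAAGAGcagcaaaaggaag
The 4 seeds differ from each other. The hairpin of miR-6352 (chr1:77496653-77496768, minus strand) lies in Epha4 under a member with scores of 14, 11 and 10 at 0.1, 0.5 and 1 µM. That of miR-8104 (chr10:122679315-122679415, plus strand) lies in Ppm1h under one with scores of 26, 10 and 26, and that of miR-6416 (chr7:64249983-64250099, minus strand) in Trpm1 under one with scores of 39, 23 and 38.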

How the data were processed

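ATAC-seq libraries of Hepa-1c1c7 cells at 4 doses of potassium chromate, 2 libraries each, underlie 3 deposited region lists, 1 per treated dose. The submitters' processing notes name the build mm10 and the tools Bowtie2, Picard and MACS2, with no version or role; the Tn5 read shift, duplicate removal and thresholds are not stated there. Each region carries a score that the authors deposited as a whole number with no stated scale. The sample annotation names 75 M read pairs, with reads of 100 bp, for each library in every group. The depth that each library reached is unknown, since the lists hold no counts of reads.

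Regions overlapping by at least 1 bp were joined, touching ones kept apart, and midpoints were placed against protein-coding genes of a RefSeq gene table (GRCm38.p6), which has no exons. Strand and internal starts came from a RefSeq promoter table of 300-base windows, with starts of 1 gene within 300 bp counted once. Gene start or end was read as that of a protein-coding gene. Intervals, where given, are 95% Wilson intervals. Shares of gene lists, length classes, motifs and positions in genes are given without one. No comparison was tested, since each dose has 1 list. Coordinates are 1-based. Scripts ran in Python 3.11.15 with pandas 2.3.3, numpy 2.4.6, scipy 1.17.1 and matplotlib 3.10.9, and were tested on simulated regions.

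Members and gene lists were chosen with earlier results of these data known. The text names the 12 genes with most members (and ties), the 12 narrow members of best mean rank, the 5 widest, the 2 on each side of the 1 kb limit, and up to 4 examples per gene list, or all genes of a list where few held a member. One further gene list and 1 gene that the rule names are not reported here. The promoter sequences, miRNAs and genes with an outer start named as examples were chosen after their values were seen. The planned motif search over whole regions could not be made without the genome sequence.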

Additional observations from a re-analysis of the deposited data

How the results depend on the processing

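No paired analysis was possible because each dose has 1 list, and for the same reason no library could be left out. The member count of 1839 stayed within 1.5 times under the other settings (1427 with 5 kb kept from gene ends, 1596 with 2.5 kb, 1616 with a reciprocal overlap of 50%, 1741 with the ends of every annotated gene, 2177 with chromosome 15 included, 1763 with the whole region inside the gene), but was 804 in the upper 50% of each list by score and 797 in the wider 50%, where the genes with a member numbered 660 and 637; both settings leave fewer regions by construction. The share of all-dose regions inside genes was 25.2% and 22.5% with 2.5 and 5 kb kept from gene ends, 27.5% with the ends of every gene, 27% in the upper 50% by score, 24.9% in the wider 50% and 27.8% with the whole region inside the gene. Median widths moved to 492, 418 and 510 bp (0.1, 0.5 and 1 µM) in the upper 50% by score and 568, 465 and 586 bp in the wider 50%. The 0.5 µM median was 360 bp with the reciprocal overlap and 361 bp with chromosome 15, and the 1 µM median 440 bp with 5 kb kept from gene ends. Further settings were chosen after seeing the data. With every start of the promoter table counted as a gene end there were 1527 members (24.1% of all-dose regions), with medians of 342 bp at 0.5 µM and 438 bp at 1 µM. Without the 1 µM list there were 1983. The share of internal starts with a member was 1.53%, 6.23% and 15.3% in the lowest, middle and highest of 3 groups by CpG count. Of 240 recomputed list shares, 29 moved outside their interval. With 5 kb kept from gene ends the share was 4.65% for Wnt genes, 12.9% for Hippo genes and 5.88% for lipid genes. In that setting 940 of all 20855 genes held a member, against 1247 in the main setting. The cause of none of these moves was tested.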

Other observations

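Members lay close together in a few stretches of the genome. The Mb at chr3:152000001-153000000 held 18, in Gipc2, Dnajb4, Miga1, Usp33, Zzz3, Ak5 and Pigk, which is the gene with the member of best mean rank. That at chr1:187000001-188000000 held 14, in Spata17, Gpatch2 and Esrrg, and that at chr5:151000001-152000000 held 14, all of them in Stard13. Among 386 genes named Zfp, most of which encode zinc finger proteins, 30 (7.77%) had a member, against 5.98% of all genes and 5.33% at the rates of their length classes, and in 12 of these the member lay at an internal start of the gene. Chromosome 15, which the selection leaves out, held 933 all-dose regions, of which 338 lay inside genes.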
